A study of Mus musculus with 12 samples.

Results

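The response of mouse macrophages with intact Dicer1 to lipopolysaccharide (LPS, a bacterial cell wall component) was measured by messenger RNA sequencing in 6 of the 12 libraries of the study. There were 3 libraries of control cells given LPS and 3 of control cells given phosphate-buffered saline (vehicle), all harvested after 6 h. The members are therefore libraries chosen by their labels, and all 13837 genes that passed a filter on low counts were tested. The control mice are titled LysMcre/+;Dicer+/+;ApoE-/-, a title that gives them the myeloid LysM-Cre driver and no working Apoe but unfloxed Dicer1. A second label field calls the same samples wildtype, and the names of the deposited control tables mark the LysM locus as wildtype, so whether these cells carried Cre is not settled by the labels. Marrow of male C57BL/6 animals was the source. The cells were grown for 7 days in 30% supernatant of L929 cells, which supplies macrophage growth factors, and were reseeded without serum. All cultures then received diluted ethanol overnight before vehicle or LPS, the latter at a labelled concentration of 100 ng/ul. The Apoe null state, the ethanol and, where present, Cre were shared by both groups, and no Apoe-sufficient cells were compared. Nothing in the labels ties the 3 libraries of a group to different animals, and p-values therefore reflect variation among these libraries only, which could be technical. The other 6 libraries are Dicer KO cells (LysMcre/+;Dicerfl/fl;ApoE-/-) with the same treatments, and were used here to estimate the spread and to test whether the response differed between genotypes.

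Each control library held between 17136578 and 18886948 reads assigned to genes. The cells had the marker profile of macrophages. All 12 macrophage markers passed the filter, among them Csf1r (the receptor for macrophage colony-stimulating factor) at 2822 ± 232 CPM with vehicle and 1446 ± 45.2 CPM with LPS, and Adgre1 (encoding F4/80) at 1545 ± 101 CPM with vehicle and 2140 ± 38.4 CPM with LPS (mean ± SD, n = 3 libraries per group; CPM is the read count divided by the library size in units of 1e6 reads, after scaling by TMM). The summed level of the 12 markers was 13806 to 15009 CPM with vehicle and 13845 to 14466 CPM with LPS. Markers of other cells differed in level from list to list. Of 12 T and NK cell markers, 2 passed the filter (Cd4 and Lck), and Trac had 1 read over the 3 vehicle libraries and 0 over the 3 LPS libraries. Of 10 mast cell and basophil markers, Kit and Hdc passed, and Mcpt8, Mcpt4, Tpsb2, Tpsab1, Fcer1a and Ms4a2 had no read in either group. The sum of the members that passed was 1.13 to 1.84 CPM with vehicle and 60.8 to 67.3 CPM with LPS. Of 12 stromal and endothelial markers, 4 passed (Pdgfrb, Kdr, Pecam1 and Cdh5) and all 4 rose, their sum being 8.26 to 9.69 CPM with vehicle and 133 to 153 CPM with LPS, while Lum and Emcn had no read and Col1a1 had 8 reads with vehicle and 5 with LPS. Neutrophil markers were detected (11 of 12), with a sum of 291 to 357 CPM with vehicle and 865 to 890 CPM with LPS, most of the second being Csf3r at 686 CPM, and Ly6g had 9 reads and 1 read. Among monocyte markers 4 of 7 rose and 3 fell, with and without vehicle replicate 3, their sum being 254 to 393 CPM with vehicle and 671 to 706 CPM with LPS. The B cell, erythroid and dendritic cell lists had 3 of 9, 3 of 10 and 4 of 9 members past the filter, with sums of 82.5 to 103, 2.13 to 2.71 and 16.4 to 20.3 CPM with vehicle and 49.6 to 53, 0.868 to 0.983 and 17 to 20.5 CPM with LPS. Hba-a1 and Hbb-bs had no read. Of 10 osteoclast markers 8 passed, 4 of them rising and 4 falling, with a sum of 244 to 267 CPM with vehicle and 157 to 168 CPM with LPS. The part of other cells in the results was not tested, and in bulk samples fewer cells of a type cannot be told apart from less RNA per cell.

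Lyz2, the locus that holds Cre in LysM-Cre mice, was at 5370 to 6041 CPM in the control vehicle libraries and at 12.7 to 15.6 CPM in the Dicer KO vehicle libraries, although the titles give both genotypes the same single copy of Cre. The titles name no difference between the genotypes at this locus. The groups are called by their Dicer1 label, but every comparison of the genotypes is also one of cells that differ in Lyz2 level. The cause of that difference was not tested. Dicer1 itself was at 42.6, 45.3 and 43.1 CPM with vehicle and 47, 48.6 and 52.5 CPM with LPS in control and at 20.1, 19.7 and 19.4 CPM with vehicle and 15.9, 14.3 and 16.3 CPM with LPS in Dicer KO, counted over all exons, so that reads outside the floxed part are included.

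The third vehicle library stood apart from the other two. Compared gene by gene, the chi-square statistic per degree of freedom was 2.54 between vehicle replicates 1 and 2, but 14.1 and 9.84 for replicate 3 against them, and 2.79 to 5.09 among the LPS libraries. In mean log2 level over the list, mitosis genes were at 3.65, 3.56 and 4.25 in vehicle replicates 1 to 3, DNA replication genes at 3.68, 3.70 and 4.16, and cholesterol synthesis genes at 3.90, 3.95 and 4.45. Replicate 3 was thus the highest for these lists, and it was the lowest for hypoxia-inducible targets (5.95, 5.85 and 5.58) and monocyte markers (4.09, 4.07 and 3.65). Counts or medians of these lists are given with and without that library.

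**Figure D1:**
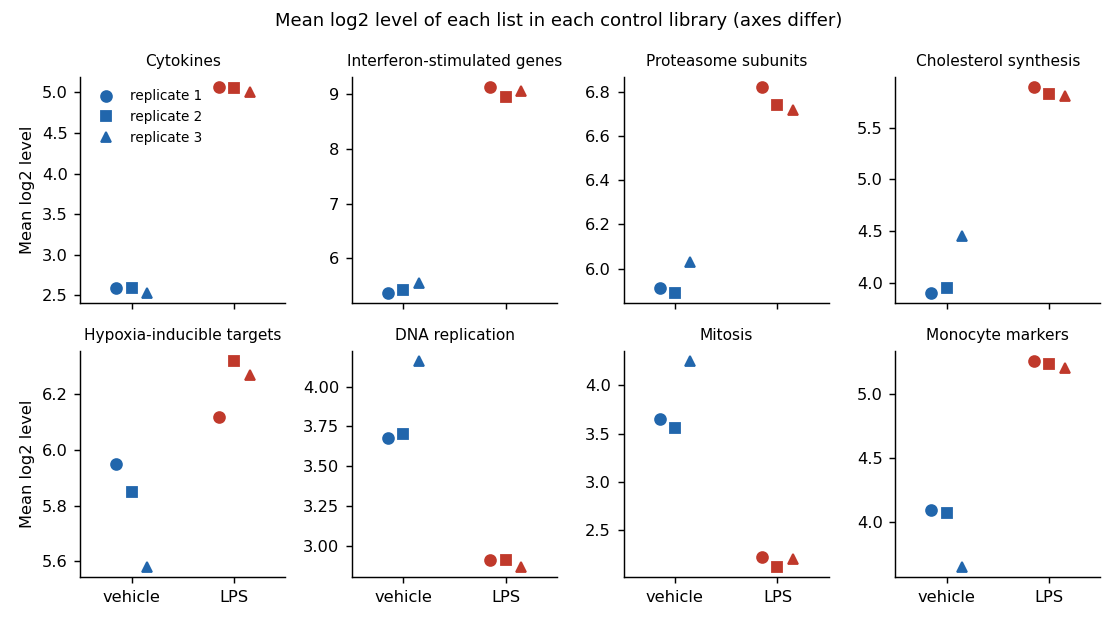
Mean log2(CPM + 1) level of 8 gene lists in each of the 6 control libraries, with vehicle in blue, LPS in red and the replicate number shown by the symbol. In the mitosis panel vehicle replicate 3 is at 4.25 and vehicle replicates 1 and 2 at 3.65 and 3.56, and the 3 LPS libraries lie below all of them.

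LPS is bound by LBP and CD14 and handed to the TLR4 and MD-2 (Ly96) complex. The adaptors MyD88 and TRIF (Ticam1) then lead, through IRAK and TRAF proteins, to NF-kappaB, AP-1 and IRF3. In macrophages the first wave induces cytokines, chemokines and inhibitors of the pathway, and type I interferon made by the cells drives a second wave of interferon-stimulated genes through the interferon receptor. The response is known to include a switch of metabolism towards glycolysis, itaconate and nitric oxide.

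Sequences are shown mainly for genes of these 2 waves, because their response was among the highest and their regulatory motifs are well defined. The promoter of Hmgcs1, a cholesterol synthesis gene outside these waves, is shown as well. All are RefSeq entries of the GRCm38.p6 build. Mir155hg is the host transcript of miR-155, a microRNA induced by inflammatory signals that needs Dicer to mature; the assay measured the host transcript and not the mature microRNA. The 2 mature products lie on the plus strand of chromosome 16, at chr16:84714143-84714165 for the 5p arm and chr16:84714182-84714202 for the 3p arm, and are shown 5′ to 3′ with the seed (bases 2 to 8) in capitals.
miR-155-5p: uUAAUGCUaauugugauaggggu
miR-155-3p: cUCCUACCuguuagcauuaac

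For the promoters, the windows shown run from 250 bases before the transcription start to 10 bases after it, 5′ to 3′ on the strand of the gene, with the motif in capitals. The 3 genes of the cytokine, chemokine or effector lists with the largest changes and a match to the kappaB motif (bound by NF-kappaB) are Ptx3, Il6 and Il19. The windows are chr3:66219637-66219896, plus strand, for Ptx3, chr5:30012864-30013123, plus strand, for Il6 and chr1:130940106-130940365, minus strand, for Il19.
Ptx3: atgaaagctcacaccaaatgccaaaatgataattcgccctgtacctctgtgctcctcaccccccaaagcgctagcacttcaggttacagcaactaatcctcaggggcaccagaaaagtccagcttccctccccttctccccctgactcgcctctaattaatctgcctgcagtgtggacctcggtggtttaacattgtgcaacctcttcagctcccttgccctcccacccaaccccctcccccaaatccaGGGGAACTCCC
Il6: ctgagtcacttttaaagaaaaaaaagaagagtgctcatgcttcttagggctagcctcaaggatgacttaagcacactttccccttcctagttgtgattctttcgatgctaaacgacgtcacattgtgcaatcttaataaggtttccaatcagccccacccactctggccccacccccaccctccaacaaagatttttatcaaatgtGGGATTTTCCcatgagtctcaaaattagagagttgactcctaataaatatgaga
Il19: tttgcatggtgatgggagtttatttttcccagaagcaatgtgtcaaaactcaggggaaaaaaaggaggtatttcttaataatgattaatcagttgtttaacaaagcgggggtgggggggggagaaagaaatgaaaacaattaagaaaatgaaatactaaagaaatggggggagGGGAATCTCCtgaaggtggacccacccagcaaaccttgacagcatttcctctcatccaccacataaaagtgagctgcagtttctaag
The capitals in Ptx3 hold 2 overlapping matches, one on each strand.

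The interferon-stimulated genes with the largest changes and a match to the ISRE motif (GAAA, any 2 bases, GAAA, on either strand, the interferon-stimulated response element) are Ifi205, Cxcl10 and Gbp5, at chr1:174031746-174032005, minus strand, chr5:92348880-92349139, minus strand and chr3:142496684-142496943, plus strand.
Ifi205: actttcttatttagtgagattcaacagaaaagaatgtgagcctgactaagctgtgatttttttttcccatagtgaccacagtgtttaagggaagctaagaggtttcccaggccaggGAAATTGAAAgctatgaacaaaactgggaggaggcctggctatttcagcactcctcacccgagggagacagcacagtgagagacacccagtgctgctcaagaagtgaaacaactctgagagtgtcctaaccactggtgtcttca
Cxcl10: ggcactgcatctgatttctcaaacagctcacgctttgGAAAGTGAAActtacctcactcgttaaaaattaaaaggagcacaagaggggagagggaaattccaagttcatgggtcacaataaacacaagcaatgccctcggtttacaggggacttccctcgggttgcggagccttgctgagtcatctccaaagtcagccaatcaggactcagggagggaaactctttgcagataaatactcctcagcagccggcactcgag
Gbp5: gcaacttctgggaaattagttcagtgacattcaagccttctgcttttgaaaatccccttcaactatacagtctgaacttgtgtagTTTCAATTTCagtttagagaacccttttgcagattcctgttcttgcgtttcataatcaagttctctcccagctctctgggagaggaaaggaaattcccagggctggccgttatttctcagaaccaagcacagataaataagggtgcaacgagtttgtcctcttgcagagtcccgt

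For cholesterol synthesis, the only list member with both a rise and a match to the SREBP motif (TCACNCCAC) in its window is Hmgcs1, at chr13:119690101-119690360, plus strand.
Hmgcs1: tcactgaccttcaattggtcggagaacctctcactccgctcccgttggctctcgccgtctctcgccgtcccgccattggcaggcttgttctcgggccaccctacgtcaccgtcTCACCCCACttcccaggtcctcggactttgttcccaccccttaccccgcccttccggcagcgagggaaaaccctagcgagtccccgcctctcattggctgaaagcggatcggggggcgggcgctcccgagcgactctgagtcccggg

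Of the 13837 genes, 5258 (38%) rose and 5690 (41.1%) fell, at a Benjamini-Hochberg adjusted p under 0.05 in edgeR's quasi-likelihood test, 79.1% in all. At least 2-fold changes were called for 2465 genes (17.8%) upward and 2781 genes (20.1%) downward. With TMM scaling the upward changes reached farther. Rises of at least 8-fold were called for 657 genes and of at least 128-fold for 102, against 474 and 19 falls of that size. Of all raised genes, 152 had 3 reads or fewer over the vehicle libraries, and 112 lowered genes had as few over the LPS libraries. Genes raised at least 2-fold held 13.2 to 13.3% of gene counts with vehicle and 44.5 to 45.2% with LPS. These shares are taken from the genes chosen by the same comparison and are a description. The scaling matters here: TMM factors were 1.29 to 1.31 for vehicle and 0.891 to 0.921 for LPS libraries, and with library totals in place of TMM the median of all genes moved from -0.06 to -0.58 and the calls became 3066 higher and 8737 lower (26% of calls higher, against 48%). At least 2-fold calls with library totals were 1651 higher and 4635 lower, and the larger size classes were not counted with that scaling. Fold changes below are TMM values and so are relative to the bulk of genes. Lists are set beside the all-gene median log2 fold change of -0.06. Counts of list members that rose or fell are to be read beside the 38% and 41.1% of all genes.

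**Figure D2:**
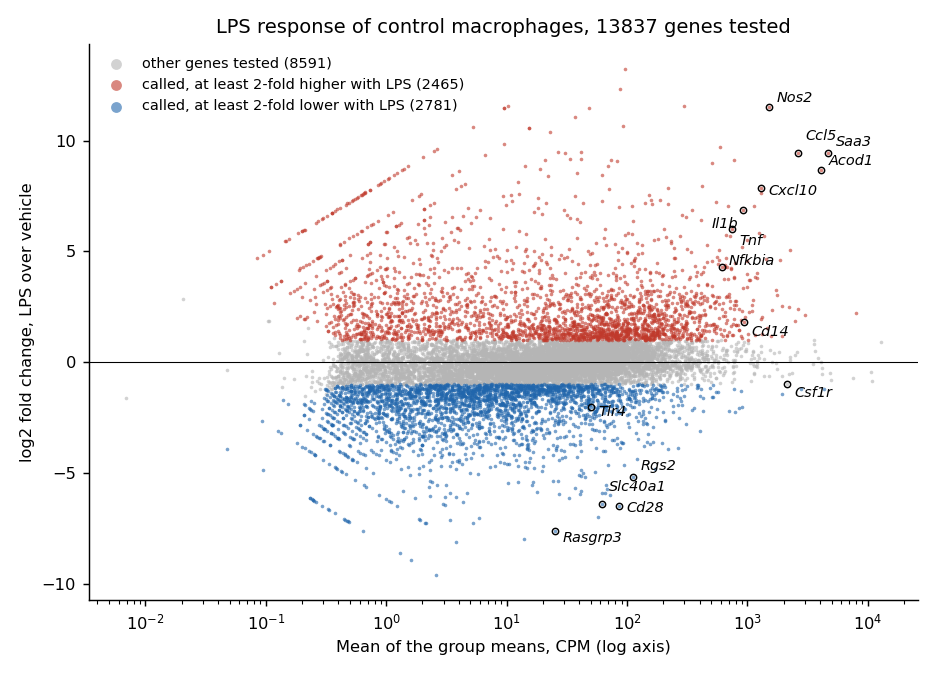
Log2 fold change of LPS over vehicle (y axis) against the mean of the 2 group means in CPM (log x axis) for the 13837 genes tested; red and blue points are genes called and changed at least 2-fold (2465 higher, 2781 lower), and 15 genes are labelled. Tnf, Nos2, Acod1 and Saa3 lie far above 0 at high levels, and Cd28, Slc40a1 and Rasgrp3 lie far below.

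**Figure D3:**
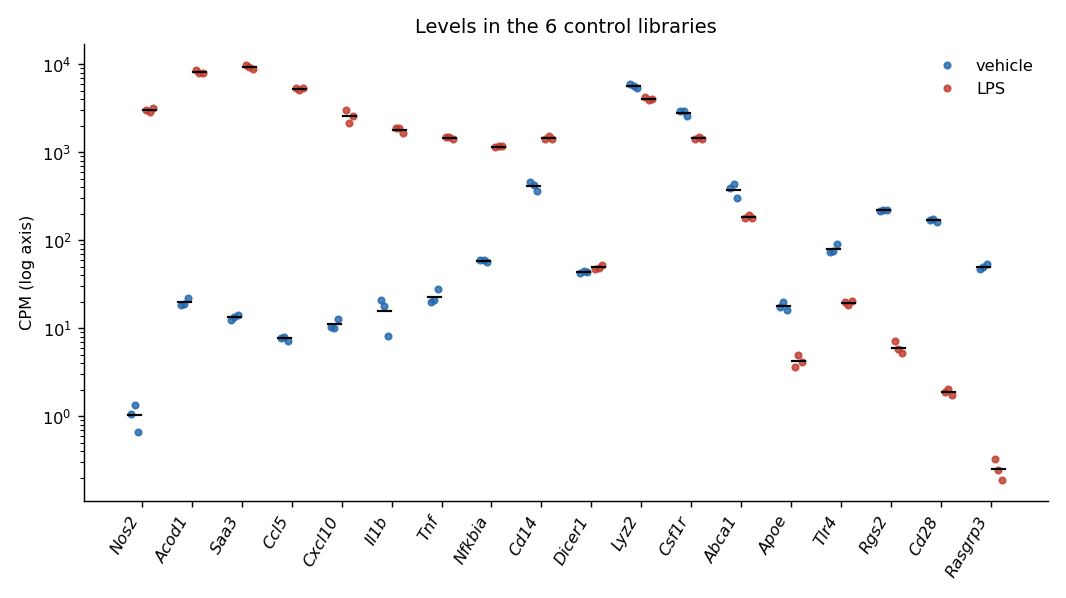
CPM (log y axis) of 18 genes in each control library, vehicle in blue and LPS in red, with a black line at the group mean. For 18 of the 18 genes, which were picked for display, the vehicle and LPS libraries do not overlap, against 80.2% of all genes tested.

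Tlr4, which encodes the LPS receptor, was measured at 72.8, 75.6 and 91.8 CPM with vehicle and 19.8, 18.3 and 20.4 CPM with LPS. The groups did not overlap, as for 80.2% of all genes, and every LPS library was low (log2 fold change -2.04 ± 0.08, edgeR adjusted p = 3.76e-14). Its co-receptor Cd14 went the other way, at 460, 426 and 360 CPM with vehicle and 1405, 1517 and 1419 CPM with LPS (log2 fold change 1.80 ± 0.08, edgeR adjusted p = 9.86e-14). Of the 31 genes of the receptor complex and TLR signalling list, 20 rose and 6 fell, with 12 and 2 at least 2-fold (14 higher and 11 lower with library totals), and the median was 0.54 on the log2 scale. Irak3 (IRAK-M, an inhibitor) went from 33.5 ± 2.79 to 323 ± 4.68 CPM (log2 fold change 3.27 ± 0.06, edgeR adjusted p = 1.18e-18). Irak2 changed by 2.41 on the log2 scale, Peli1 (a ubiquitin ligase) by 2.86 and Myd88 by 1.92, while the inhibitor Sigirr fell (-2.48). Among other pattern recognition receptors, 17 of 25 rose and 6 fell, led by the RNA sensor Ifih1 (MDA5) at 49 ± 4.24 CPM with vehicle and 782 ± 35.8 CPM with LPS, the C-type lectin Clec4e (Mincle) at 132 ± 28.3 CPM with vehicle and 4348 ± 95.3 CPM with LPS and Tlr1 at 41.8 ± 3.17 CPM with vehicle and 331 ± 4.72 CPM with LPS. Clec7a (Dectin-1) and the bacterial RNA sensor Tlr13 fell (log2 fold change -2.47 and -2.59). Tlr5, the flagellin receptor, had 238 reads over the 3 vehicle libraries and none over the LPS libraries, at least 51.9-fold lower when the LPS group is set at a floor of 3 reads, the limit that a count of 0 allows. All such bounds and intervals cover counting error only.

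Of 17 genes of the NF-kappaB and IkappaB family, 15 rose and 1 fell, with 14 and 0 at least 2-fold, and the median was 2.75 on the log2 scale. The fall was Otulin (log2 fold change -0.28). Nfkbia (IkappaB-alpha, an inhibitor and target of the pathway) was at 60.1, 59.2 and 57 CPM with vehicle and 1134, 1167 and 1181 CPM with LPS. All LPS libraries were high, with little spread (log2 fold change 4.30 ± 0.06, edgeR adjusted p = 1.13e-20). Nfkb2 (p100) rose from 74.1 ± 1.54 to 847 ± 49 CPM, Tnip1 by 3.46 on the log2 scale and Tnip3 by 3.99, both encoding binding partners of A20. 18.1% of the exon length of Nfkb2 overlaps exons on the opposite strand, and reads of the 2 genes cannot be told apart without the strand setting.

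Early response transcription factors were split: 20 of 37 rose and 12 fell, median log2 fold change 0.48 (17 higher and 15 lower, median -0.04, with library totals). Batf was at 3.33 ± 0.128 CPM with vehicle and 131 ± 3.09 CPM with LPS (log2 fold change 5.30 ± 0.08, edgeR adjusted p = 8.20e-20), Hif1a at 72.3 ± 3.89 CPM with vehicle and 510 ± 11 CPM with LPS and Klf7 at 13.8 ± 1.42 CPM with vehicle and 134 ± 7.1 CPM with LPS, with 39.4% of its exon length overlapping opposite-strand exons. The immediate early genes Egr3 (log2 fold change -3.48), Fosb (-3.43), Egr2 (-2.54) and Fos (-2.28) were lower at 6 h. Of 22 interferon regulatory and STAT pathway members, 18 rose and 3 fell. Stat3 rose from 109 ± 3.7 to 811 ± 25.9 CPM, Jak2 by 4.44 on the log2 scale and Stat5a by 2.72, while Irf4, a factor linked to the alternative activation of macrophages, fell (-4.20). Ifnb1, which encodes interferon beta, had no read with vehicle and 20 reads over the 3 LPS libraries, at least 10.2-fold higher.

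Interferon-stimulated genes rose almost without exception. Of 59 tested, 58 rose and none fell, 57 of them at least 2-fold, against 17.8% of all genes, and the list median was a log2 fold change of 3.20. Trim25 was the member that was not called, at 474 ± 59.8 CPM with vehicle and 423 ± 16.5 CPM with LPS (log2 fold change -0.16 ± 0.09, edgeR adjusted p = 0.0903). Cxcl10, a chemokine and classical interferon target, was at 10.4, 10.1 and 12.9 CPM with vehicle and 3007, 2157 and 2556 CPM with LPS. All 3 LPS libraries were far above all 3 vehicle libraries. Its log2 fold change was 7.85 ± 0.33 (edgeR adjusted p = 1.01e-08). Isg15, the ubiquitin-like modifier, was at 27.3 ± 2.85 CPM with vehicle and 1402 ± 95.9 CPM with LPS, and Mx1, an antiviral GTPase, at 41.6 ± 5.22 CPM with vehicle and 1924 ± 172 CPM with LPS. Ifi205 and Gbp5, whose promoters are printed, were at 2 ± 0.169 CPM with vehicle and 1016 ± 67 CPM with LPS and at 13 ± 0.343 CPM with vehicle and 2569 ± 140 CPM with LPS. The members with the smallest adjusted p were Parp9 (log2 fold change 2.29 ± 0.06, edgeR adjusted p = 1.78e-16), Trim30a (2.74), Oas3 (2.70) and Eif2ak2, the RNA-activated kinase PKR (2.39). Many members belong to families of near-identical copies, so reads can be split between them.

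Among cytokines, 25 of 33 rose and 7 fell. The median log2 fold change of 4.85 is 3.89 with the 3 genes that had no read in 1 group set at their bounds. Genes with few reads, such as Il6, kept their fitted values in that median. Tnf was at 20, 20.8 and 28 CPM with vehicle and 1497, 1476 and 1413 CPM with LPS. No vehicle library approached the LPS libraries (log2 fold change 6.00 ± 0.11, edgeR adjusted p = 1.38e-18). Il1b was at 20.7, 18 and 8.23 CPM with vehicle and 1879, 1895 and 1655 CPM with LPS. Vehicle replicate 3 was the lowest, and the log2 fold change was 6.85 ± 0.35 (edgeR adjusted p = 5.95e-08), or 6.54 without it. Il1rn, which encodes the IL-1 receptor antagonist, rose from 42.3 ± 6.6 to 2440 ± 252 CPM. Il6 had 1 read over the vehicle libraries and 1468 with LPS, a ratio of 2243-fold (95% interval 402 to 88643). Il12b, the p40 subunit of IL-12 and IL-23, had 2 reads with vehicle and 4594 with LPS, a ratio of 3509-fold (95% interval 971 to 28986). Il19, of the IL-10 family, had 2 and 433 reads, a ratio of 331-fold (95% interval 91 to 2740). The anti-inflammatory cytokine Il10 was at 3.52, 2.97 and 3.22 CPM with vehicle and 49.1, 42.3 and 43.8 CPM with LPS (log2 fold change 3.80 ± 0.13, edgeR adjusted p = 1.66e-13). Il27 and Tnfsf9 (4-1BB ligand) changed by 5.53 and 5.65 on the log2 scale. The falls were Tnfsf12, Vegfa, Tnfsf13b, Pdgfb, Igf1, Osm and Tgfb1, from log2 fold change -2.66 for Tnfsf12 to -0.50 for Tgfb1.

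Of 20 chemokines, 18 rose and none fell, all 18 at least 2-fold. Ccl5 (RANTES) was at 7.81, 8.03 and 7.23 CPM with vehicle and 5330, 5144 and 5341 CPM with LPS (log2 fold change 9.42 ± 0.19, edgeR adjusted p = 3.99e-14). Ccl9 was at 666 ± 10.2 CPM with vehicle and 3771 ± 233 CPM with LPS. Cxcl9, a target of interferon gamma and type I interferon, was at 0.11 ± 0.0642 CPM with vehicle and 185 ± 23.8 CPM with LPS. Ccl22 and Ccl8 were at 0.861 ± 0.148 CPM with vehicle and 20.9 ± 2.12 CPM with LPS and at 0.274 ± 0.0639 CPM with vehicle and 18.3 ± 3.24 CPM with LPS. Pf4 and Ccl6 were not called.

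The list of inducible effector enzymes and secreted proteins had the highest median log2 fold change of the 41 lists, 6.54. Its members were listed as inducible, so this rank is a description of the choice. Of 35 tested, 30 rose and 4 fell, with 28 and 2 at least 2-fold. Nos2, which makes nitric oxide, was at 1.05, 1.34 and 0.669 CPM with vehicle and 3029, 2864 and 3212 CPM with LPS. It was barely detected in each vehicle library and high in each LPS library (log2 fold change 11.52 ± 0.32, edgeR adjusted p = 7.03e-11). Acod1, which makes itaconate, was at 18.5, 18.9 and 22.3 CPM with vehicle and 8580, 7982 and 7988 CPM with LPS (log2 fold change 8.68 ± 0.26, edgeR adjusted p = 1.20e-10). Saa3, an acute phase protein, was at 12.5, 13.5 and 14.2 CPM with vehicle and 9885, 9371 and 8935 CPM with LPS (log2 fold change 9.45 ± 0.17, edgeR adjusted p = 6.31e-16). Ptgs2 (cyclooxygenase 2) was at 1.9, 1.63 and 0.627 CPM with vehicle and 1165, 1232 and 1152 CPM with LPS. No library of one group came near the other. Its log2 fold change was 9.72 ± 0.18 (edgeR adjusted p = 2.17e-15). The arginine transporter Slc7a2, the metalloproteinase Mmp14, the ferroxidase Cp and the mitochondrial superoxide dismutase Sod2 changed by 7.87, 6.88, 6.54 and 5.19 on the log2 scale. The falls were Plau (log2 fold change -4.61), Thbs1 (-2.53), Mmp8 (-0.49) and Plaur (-0.25); Thbs1 varied widely with vehicle, 457 ± 267 CPM. Arg1, a rival of Nos2 for arginine, had 37 reads with vehicle and 19 with LPS and did not pass the filter.

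The 15 largest rises by the fitted fold change included genes that were near absent with vehicle, for which the ratio of reads is given with an interval or as a bound. Lipg (endothelial lipase) had 1 read with vehicle and 9238 with LPS, a ratio of 14113-fold (95% interval 2532 to 557509). Edn1 (endothelin 1) had a ratio of 6430-fold (95% interval 1780 to 53106) and Plat (tissue plasminogen activator) of 2247-fold (95% interval 403 to 88824). Ptx3, Ifitm7 and Vgf had no read with vehicle and were at least 499, 469 and 466-fold higher. Leaving out the vehicle library that held the reads moved the fitted log2 value from 13.21 to 14.78 for Lipg, from 12.34 to 14.64 for Edn1, from 10.56 to 12.11 for Plat, from 10.55 to 12.12 for Il6 and from 9.86 to 11.43 for Steap4, a metalloreductase. Genes named for their high CPM with LPS, a measure that is not corrected for length, included Actb (beta-actin) at 2833 ± 391 CPM with vehicle and 13016 ± 460 CPM with LPS, Lcp1 (L-plastin, an actin bundler) at 1131 ± 152 CPM with vehicle and 4900 ± 71 CPM with LPS, Tnfrsf1b (TNF receptor 2) at 832 ± 62.8 CPM with vehicle and 4394 ± 52.7 CPM with LPS and Cybb (NADPH oxidase subunit) at 1068 ± 65.8 CPM with vehicle and 3895 ± 60.7 CPM with LPS. Actb is often used as a reference gene, and its log2 fold change was 2.20, or 1.68 with library totals.

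Of 31 feedback regulators, 22 rose and 7 fell, with 18 and 5 at least 2-fold (median log2 fold change 1.45). Socs3, an inhibitor of JAK and STAT signalling, was at 3.04, 2.77 and 2.42 CPM with vehicle and 1521, 1507 and 1577 CPM with LPS (log2 fold change 9.12 ± 0.09, edgeR adjusted p = 8.49e-22). The RNase Zc3h12a (regnase-1) rose from 30 ± 0.905 to 260 ± 1.9 CPM. Rgs2, an inhibitor of G protein signalling, went the other way, at 217, 218 and 221 CPM with vehicle and 7.14, 5.75 and 5.21 CPM with LPS (log2 fold change -5.18 ± 0.08, edgeR adjusted p = 4.48e-20). Zfp36l2 and Zfp36l1, which promote decay of AU-rich transcripts, fell (log2 fold change -3.70 and -3.48), while their relative Zfp36 (tristetraprolin) rose by 2.42.

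Inflammasome genes rose in 14 of 20 cases and fell in 4. Casp1 was at 88.5 ± 3.35 CPM with vehicle and 544 ± 21.7 CPM with LPS, Casp4 (caspase-11, the sensor of cytosolic LPS) at 30.2 ± 0.98 CPM with vehicle and 278 ± 13.3 CPM with LPS and Gsdmd (the pore former) at 128 ± 3.06 CPM with vehicle and 429 ± 17.6 CPM with LPS. The ATP receptor P2rx7 fell, from 88.9 ± 5.92 to 19 ± 0.471 CPM (log2 fold change -2.23 ± 0.08, edgeR adjusted p = 2.66e-15). In the death list, 22 of 35 rose and 10 fell (16 higher and 15 lower with library totals). Bcl2a1d, an A1 survival factor whose copies share reads with Bcl2a1a and Bcl2a1b, was at 1.33 ± 0.147 CPM with vehicle and 169 ± 8.45 CPM with LPS, and Cflar (c-FLIP) at 95.2 ± 1.58 CPM with vehicle and 1274 ± 25.8 CPM with LPS.

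Among surface molecules, Cd40, a costimulatory receptor, was at 7.37, 7.37 and 6.64 CPM with vehicle and 1148, 1037 and 1070 CPM with LPS. All LPS libraries were high (log2 fold change 7.25 ± 0.10, edgeR adjusted p = 1.63e-20). Icam1 (an adhesion ligand) rose from 89.2 ± 1.09 to 1195 ± 25.1 CPM, and Slamf7 and Slamf1 changed by 2.75 and 8.74 on the log2 scale. The checkpoint receptor Havcr2 (TIM-3) fell (log2 fold change -3.69). MHC class I and immunoproteasome genes rose in 21 of 22 cases, among them Psme2 (log2 fold change 2.98), Psmb10 (2.93) and Tap2 (2.52). Class II was divided: of 11 genes, 3 rose, 2 fell and 6 were not called, with H2-Ab1 at 47.6 ± 2.52 CPM with vehicle and 113 ± 4.34 CPM with LPS and the class II transactivator Ciita at 9.91 ± 1.03 CPM with vehicle and 2.09 ± 0.185 CPM with LPS. With library totals 2 were higher and 7 lower, and the list median moved from -0.06 to -0.59. The rise of Cd74, the invariant chain (log2 fold change 0.60), was lost with library totals (0.07, edgeR adjusted p = 0.483).

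Scavenger and phagocytic receptors moved both ways (13 rose and 18 fell of 33). Marco rose from 8.01 ± 0.418 to 237 ± 5.42 CPM and Msr1 by 2.60 on the log2 scale, while Cd163 (-4.17), the integrin Itgb5 (-1.75) and the mannose receptor Mrc1 (-1.52) fell. Of 33 lineage factors and growth factor receptors, 14 rose and 14 fell, 42.4% each, against 38% and 41.1% of all genes. The list median was a log2 fold change of 0.04 that turned negative under other settings, -0.48 with library totals and -0.06 without vehicle replicate 3. Csf1r was at 2946, 2966 and 2554 CPM with vehicle and 1415, 1498 and 1426 CPM with LPS (log2 fold change -0.96 ± 0.07, edgeR adjusted p = 3.33e-10), and 15.1% of its exon length overlaps opposite-strand exons. Mef2c and Cebpa fell (log2 fold change -2.82 and -2.54), and Spi1 (PU.1) rose by 1.70. G protein-coupled receptors included the adenosine receptor Adora2a, at 0.202, 0.407 and 0.292 CPM with vehicle and 160, 172 and 165 CPM with LPS (log2 fold change 9.07 ± 0.13, edgeR adjusted p = 3.24e-20), and the formyl peptide receptor Fpr1 (7.29), while Lpar6 and Cxcr4 fell (-5.16 and -5.72); 19 of the 40 rose and 14 fell (15 and 19 with library totals). Alternative activation genes were split, 6 up and 7 down of 14, and the list median was a log2 fold change of -0.66 (-1.51 when only the 6 control libraries were fitted). Il4ra rose by 4.47 on the log2 scale, and Matk, Egr2 and Pparg fell (-2.91, -2.54 and -3.83).

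**Figure D4:**
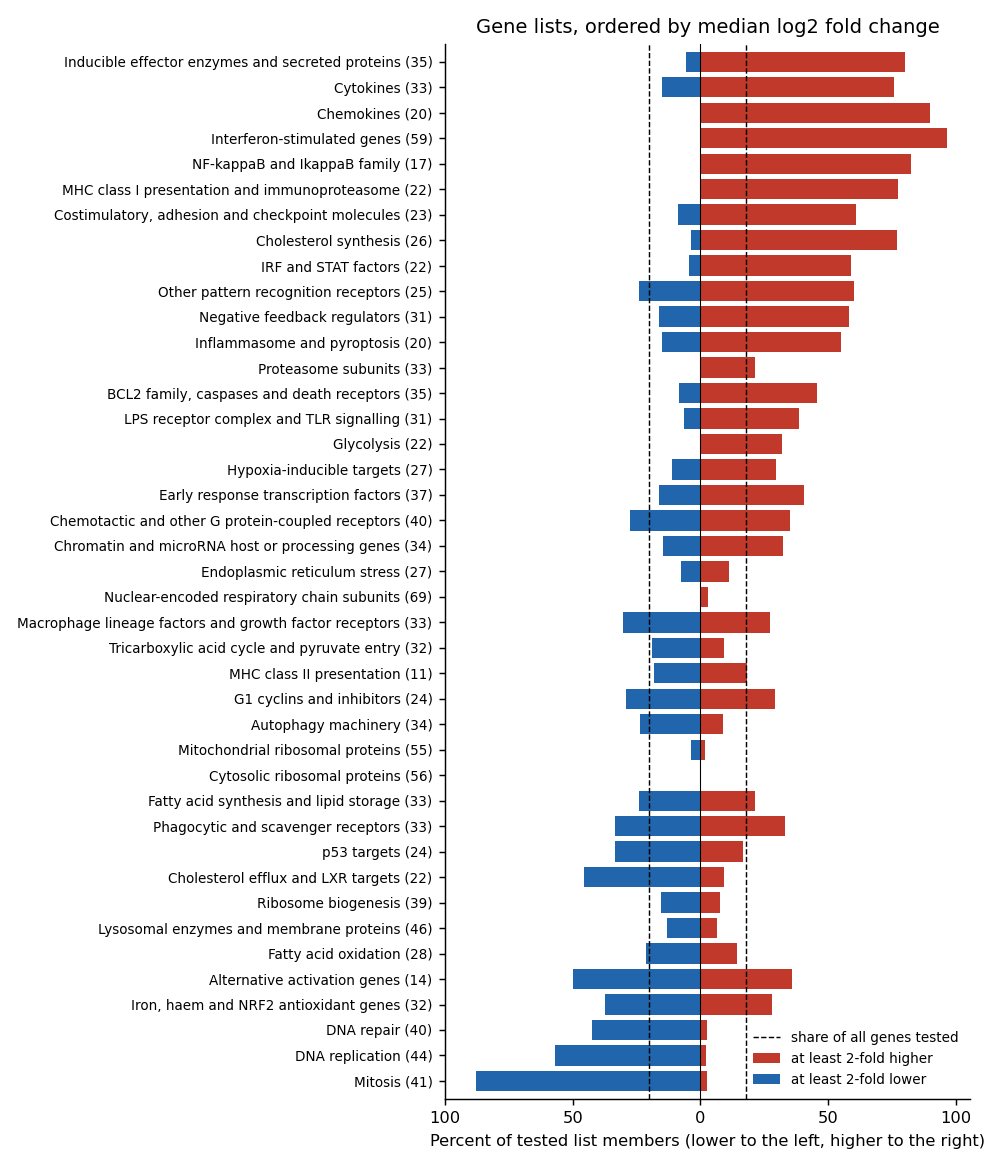
Percent of the tested members of each of 41 gene lists that were called and at least 2-fold higher (red, right) or lower (blue, left), with the number tested in parentheses; dashed lines mark 17.8% and 20.1% of all genes. Interferon-stimulated genes reach 96.6% higher and mitosis genes 87.8% lower, and medians of 8 lists change sign with library totals.

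In glycolysis, 17 of 22 genes rose and 4 fell (7 and 7 with library totals). Slc2a6, a lysosomal hexose transporter, and Pfkfb3, which makes the activator of phosphofructokinase, rose by 4.28 and 4.39 on the log2 scale, and the hexokinase Hk1 by 1.67. Hypoxia-inducible targets had 14 of 27 higher and 8 lower (9 and 12 with library totals, 12 and 9 without vehicle replicate 3), and the median of 0.50 on the log2 scale was 0.39 without that library. In the tricarboxylic acid cycle list, 12 of 32 rose and 12 fell, 37.5% each, against 38% and 41.1% of all genes. The median log2 fold change of 0.02 turned to -0.50 with library totals and -0.02 without vehicle replicate 3. Idh1 was at 239, 226 and 210 CPM with vehicle and 47.7, 44 and 43.7 CPM with LPS (log2 fold change -2.32 ± 0.07, edgeR adjusted p = 2.19e-16), and Idh2 fell (-1.63), both encoding NADP-dependent isocitrate dehydrogenases. Pdk3, an inhibitor of pyruvate dehydrogenase, rose by 2.63 on the log2 scale. Changes of nuclear-encoded respiratory chain genes were small: 28 of 69 rose and 14 fell, with 2 at least 2-fold (Cycs, cytochrome c, at 19.2 ± 2.67 CPM with vehicle and 138 ± 13.6 CPM with LPS, and Ndufs4, log2 fold change 1.35). With library totals 57 fell and 3 rose. Fatty acid oxidation genes fell in 18 of 28 cases and rose in 8, the falls including Acadm (log2 fold change -1.91) and Hadh (-1.96), while the acyl-CoA synthetase Acsl1 rose by 4.05.

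Cholesterol synthesis genes rose together: 22 of 26 rose and 2 fell (20 at least 2-fold upward), and the list median was a log2 fold change of 2.08 (2.35 without vehicle replicate 3). Mvd (mevalonate decarboxylase) was at 10.5, 8.96 and 10.2 CPM with vehicle and 47.3, 51 and 45.4 CPM with LPS. Its groups did not overlap (log2 fold change 2.27 ± 0.09, edgeR adjusted p = 2.15e-14). Fdps and Acat2 changed by 4.02 and 3.92 on the log2 scale. Hmgcs1, whose promoter is printed, was at 38.5, 41.4 and 59.2 CPM with vehicle and 402, 374 and 368 CPM with LPS. The 3 LPS libraries were higher than the 3 vehicle libraries, among which replicate 3 was the highest. Efflux and LXR target genes fell in 12 of 22 cases, 10 at least 2-fold, and rose in 6. Abca1, the main cholesterol exporter, was at 390, 440 and 300 CPM with vehicle and 181, 196 and 179 CPM with LPS (log2 fold change -1.02 ± 0.13, edgeR adjusted p = 1.60e-05), and Arl4c, Npc1, Soat1 and the lipase Lipa changed by -4.65, -2.03, -1.55 and -2.27. Of the 6 that rose, 2 did so at least 2-fold, among them Ch25h, the 25-hydroxylase, at 0.289 ± 0.192 CPM with vehicle and 36.3 ± 3.92 CPM with LPS. Apoe transcripts, from the allele titled as null, were counted at 17.9 ± 1.91 CPM with vehicle and 4.24 ± 0.622 CPM with LPS. In fatty acid synthesis and lipid storage, 13 of 33 rose (39.4%, against 38% of all genes) and 14 fell (42.4%, against 41.1%). The list median was -0.30 (0.02 with a stricter filter on low counts), and Lpin1 fell (log2 fold change -5.53) and Dgat2 rose (5.57).

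Lysosomal genes fell in 32 of 46 cases and rose in 10, and the list median was a log2 fold change of -0.49. Galc (galactocerebrosidase) was at 123, 123 and 122 CPM with vehicle and 17.6, 18 and 17.7 CPM with LPS (log2 fold change -2.79 ± 0.05, edgeR adjusted p = 7.05e-19), and Manba fell (-2.41), while Ctsc (cathepsin C) and Acp5 rose by 3.39 and 2.92. Autophagy genes fell in 17 of 34 cases (50%, against 41.1% of all genes) and rose in 14 (41.2%, against 38%). With library totals 25 fell and 7 rose. Among the rises were the cargo receptors Tax1bp1 (log2 fold change 2.68) and Optn (2.43). In the endoplasmic reticulum stress list, 13 of 27 rose and 9 fell (6 and 17 with library totals), with Hspa5 (BiP) at 542 ± 14.9 CPM with vehicle and 1225 ± 54.6 CPM with LPS.

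Most genes of mitosis and DNA replication fell. In the mitosis list, 36 of 41 fell, all 36 at least 2-fold, and 4 rose, and the list median was a log2 fold change of -2.36 (-2.08 without vehicle replicate 3). Kif23, a kinesin of the midbody, was at 24.9, 24.8 and 35.8 CPM with vehicle and 1.11, 0.969 and 1.05 CPM with LPS. The LPS libraries were low, while vehicle replicate 3 was the highest of the vehicle libraries (log2 fold change -4.76 ± 0.26, edgeR adjusted p = 1.59e-09). Cdc25b was at 59, 56.2 and 59.7 CPM with vehicle and 2.75, 3.21 and 3.1 CPM with LPS (log2 fold change -4.26 ± 0.09, edgeR adjusted p = 5.27e-18). Of the 4 that rose, Pttg1 (securin) was at 17.5, 16 and 14.3 CPM with vehicle and 143, 121 and 128 CPM with LPS and Mki67 at 51.4, 54.1 and 86.6 CPM with vehicle and 121, 132 and 130 CPM with LPS. DNA replication genes fell in 33 of 44 cases and rose in 3 (median log2 fold change -1.19, -0.91 without vehicle replicate 3). E2f2 was at 32 ± 0.733 CPM with vehicle and 3.42 ± 0.292 CPM with LPS, Mcm7 fell (log2 fold change -2.52), and Ccne1 (cyclin E1) rose by 1.99. DNA repair genes fell in 28 of 40 cases and rose in 4, the falls including Chek2 (log2 fold change -3.42) and Brca2 (-3.41). Cyclin genes of G1 were divided: Ccnd2 rose from 2.34 ± 0.344 to 377 ± 13 CPM and Ccnd1 fell (log2 fold change -2.50). Cdkn1a (p21) was at 327, 299 and 268 CPM with vehicle and 999, 1060 and 1005 CPM with LPS (log2 fold change 1.78 ± 0.07, edgeR adjusted p = 5.83e-14), while among p53 targets 13 of 24 fell and 7 rose, with Sesn1 at 164 ± 5.73 CPM with vehicle and 11.2 ± 1 CPM with LPS.

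Proteasome subunits rose in 31 of 33 cases with no fall, 7 of them at least 2-fold, and the list median was a log2 fold change of 0.83 (20 higher and 6 lower, median 0.31, with library totals). Psma6 was at 64.3 ± 3.07 CPM with vehicle and 552 ± 10.9 CPM with LPS (log2 fold change 3.10 ± 0.06, edgeR adjusted p = 3.14e-19). Cytosolic ribosomal protein genes had small shifts, 42 of 56 lower and 5 higher and none at least 2-fold, among them Rpl3 (log2 fold change -0.63); with library totals all 56 were lower. Ribosome biogenesis genes fell in 26 of 39 cases and rose in 7. Of 55 mitochondrial ribosomal genes, 24 fell (43.6%, against 41.1% of all genes) and 17 rose (30.9%, against 38%). Among iron and NRF2 genes, 13 of 32 rose (40.6%, against 38% of all genes) and 18 fell (56.2%, against 41.1%). Slc40a1 (ferroportin, the iron exporter) was at 131, 127 and 109 CPM with vehicle and 1.31, 1.7 and 1.3 CPM with LPS. It was low in each LPS library (log2 fold change -6.40 ± 0.12, edgeR adjusted p = 3.59e-19). Ftl1 was at 5993 ± 75.6 CPM with vehicle and 2597 ± 56.5 CPM with LPS, with 26.5% of its exon length overlapping opposite-strand exons, and Gsr (glutathione reductase) rose by 3.21 on the log2 scale.

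Among the 15 largest falls were genes of signalling, transport and the cell surface. Rasgrp3, a Ras activator, was at 47.2, 49.9 and 53.4 CPM with vehicle and 0.328, 0.242 and 0.186 CPM with LPS (log2 fold change -7.61 ± 0.18, edgeR adjusted p = 1.87e-17). Cd28, a costimulatory receptor best known in T cells, was at 171, 176 and 160 CPM with vehicle and 1.9, 2.06 and 1.74 CPM with LPS (log2 fold change -6.47 ± 0.09, edgeR adjusted p = 1.22e-20). St6gal1, a sialyltransferase, was at 120, 117 and 106 CPM with vehicle and 0.721, 1.21 and 0.744 CPM with LPS (log2 fold change -6.98 ± 0.11, edgeR adjusted p = 1.08e-19). Angptl4, an inhibitor of lipoprotein lipase, had 378 reads with vehicle and none with LPS, at least 82.5-fold lower. Sox4 had 3 reads with LPS, a ratio of 167-fold (95% interval 56.9 to 811), with 54.6% of its exon length overlapping opposite-strand exons. Slco2b1 and Cmah rested on few LPS reads: without LPS replicate 1 the log2 value of Slco2b1 was -8.29 against -7.02, and without LPS replicate 3 that of Cmah was -7.31 against -6.07. Genes with high CPM with vehicle that fell at least 2-fold included Lgals3 (galectin-3) at 3858 ± 319 CPM with vehicle and 1691 ± 87.2 CPM with LPS, Selenop at 2798 ± 229 CPM with vehicle and 1047 ± 97.1 CPM with LPS and Adam8 at 1154 ± 29.3 CPM with vehicle and 250 ± 0.524 CPM with LPS. Lyz2 was at 6041, 5730 and 5370 CPM with vehicle and 4281, 3891 and 4008 CPM with LPS (log2 fold change -0.49 ± 0.08, edgeR adjusted p = 9.18e-06).

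Dicer1, which makes mature microRNAs and was intact in these cells, was a little higher with LPS (log2 fold change 0.18 ± 0.06, edgeR adjusted p = 0.011). The difference reversed with library totals (-0.34, edgeR adjusted p = 4.27e-05) and was lost without LPS replicate 3 (0.14, edgeR adjusted p = 0.0662). Mir155hg had 2 reads with vehicle and 3524 with LPS, a ratio of 2692-fold (95% interval 745 to 22237); without vehicle replicate 1 the fitted log2 value was 13.37 against 11.08. Of 34 chromatin and microRNA genes, 16 rose and 10 fell (12 and 17 with library totals), with Tet2 at 48.5 ± 3.42 CPM with vehicle and 259 ± 10.5 CPM with LPS and Ago1 at 77.4 ± 3.04 CPM with vehicle and 217 ± 6.75 CPM with LPS. More than 10% of exon length also overlapped opposite-strand exons for Myd88 (11.3%), Il27 (10.1%), Tnfsf9 (14.9%), Icam1 (11.7%), Tap2 (18.5%), Ch25h (11.5%), Ifitm7 (10.9%), Selenop (15.4%), Zfp36l1 (55.9%), Ccnd1 (23.4%) and Hmgcs1 (12.1%). Among non-coding genes AW112010 rose from 10.2 ± 1.16 to 1367 ± 123 CPM and Peg13 fell from 35.8 ± 2.49 to 5.64 ± 1.1 CPM.

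Of the 5246 genes changed at least 2-fold in control cells, 4935 were called in the same direction in Dicer KO cells, 18 in the opposite direction and 293 were not called; the 2 comparisons use separate libraries but one shared estimate of the spread. The difference of the responses was called for 4669 of the 13837 genes (33.7%), and for 939 genes it was at least 2-fold (6.79%). It was positive, meaning a higher log2 fold change in Dicer KO, for 2067 genes and negative for 2602, or for 997 and 5136 with library totals. In control cells Cd38, an NAD-consuming ectoenzyme, was at 0.364, 0.163 and 0.251 CPM with vehicle and 157, 140 and 143 CPM with LPS, and in Dicer KO cells at 0, 0 and 0 CPM with vehicle and 147, 147 and 145 CPM with LPS. The levels with LPS were alike, and the Dicer KO vehicle libraries were at 0 while those of control held a few reads. Abca1 fell in control and was at 436, 333 and 417 CPM with vehicle and 584, 551 and 548 CPM with LPS in Dicer KO (difference 1.53 ± 0.18, edgeR adjusted p = 7.07e-05). Lyz2 fell in control. In Dicer KO it was at 15.6, 12.7 and 14 CPM with vehicle and 16.2, 20.6 and 19.9 CPM with LPS (difference 0.91 ± 0.13, edgeR adjusted p = 2.76e-05). These Dicer KO levels of Lyz2 were far below those of control, so the difference compares responses from unlike levels. Interferon-stimulated genes had a median log2 fold change of 3.20 in control and 2.24 in Dicer KO, with a called difference in 54 of 59. Levels of the following members were higher in Dicer KO with either treatment, although their fold changes were smaller. Parp9 was at 83.2, 82.7 and 84.3 CPM with vehicle and 409, 398 and 414 CPM with LPS in control and at 269, 221 and 253 CPM with vehicle and 826, 848 and 854 CPM with LPS in Dicer KO. Cxcl10 was at 172, 79.7 and 149 CPM with vehicle and 7719, 7411 and 7330 CPM with LPS in Dicer KO. The same order held for Ifit2, Oas3, Trim30a and Eif2ak2, whose 3 Dicer KO libraries were above the 3 control libraries with vehicle and with LPS. Cholesterol synthesis genes had a median log2 fold change of 2.08 in control and 0.57 in Dicer KO, with a called difference in 22 of 26. Mvd, for one, was at 9.49, 10.9 and 8.82 CPM with vehicle and 14.3, 17.3 and 16.3 CPM with LPS in Dicer KO, with vehicle levels that overlapped those of control and lower LPS levels.

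Promoter windows were found for 9980 of the tested genes. The ISRE was in the window of 8.14% of genes raised at least 2-fold, 3.42% of genes tested and changed by less, 3.03% of genes lowered at least 2-fold and 3.99% of all 27025 genes with a window (a gene may have several; of the 32851 windows themselves 3.44% held it). In the same order of groups, the kappaB motif was in 9.98%, 5.46%, 5.9% and 5.14%, and AP-1 (TGANTCA) in 8.67%, 5.52%, 7.44% and 8.97%. Among genes raised at least 8-fold, a class that was not planned and was added after the gene results were known, the ISRE was in 12.8%, the kappaB motif in 12.8%, AP-1 in 14.1% and GAS in 13.7%. By list, likewise not planned, the ISRE was in 29 of 47 interferon-stimulated genes, the kappaB motif in 6 of 20 cytokines and 5 of 13 chemokines, and AP-1 in 11 of 47 interferon-stimulated, 5 of 20 cytokine and 7 of 24 effector genes. CCAAT was in 25 of 34 mitosis and 17 of 19 cholesterol synthesis genes against 41.1% of all genes with a window, and the E2F motif (TTT, then 2 bases each G or C, then CGC) in 14 of 36 DNA replication genes against 2.6%. By response class, the E2F motif was in 3.57% of raised and 4.96% of lowered genes, and in 4.87% of genes tested and changed by less. The GAS motif (TTCNNNGAA) was in 10.8% of raised and 7.84% of lowered genes, against 9.55% of all genes with a window. The SREBP motif was in 1.31% of raised, 1.49% of lowered and 1.44% of all genes with a window, and in 1 of 19 cholesterol synthesis genes. All motifs were searched on both strands, and a match is a description of letters, not of binding.

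**Figure D5:**
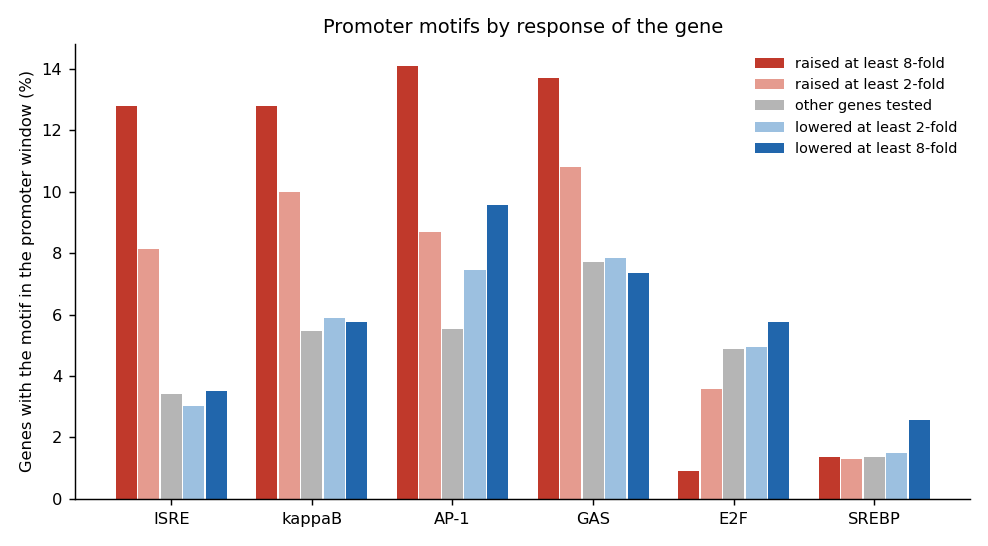
Percent of genes whose promoter window holds each motif, by the response of the gene in control cells (bars, from raised at least 8-fold to lowered at least 8-fold; the 2-fold classes include the 8-fold ones). The ISRE and kappaB bars are tallest for raised genes. The E2F bars are of similar height for genes lowered at least 8-fold (5.75%), lowered at least 2-fold (4.96%) and other genes tested (4.87%). They are lower for genes raised at least 2-fold (3.57%) and 8-fold (0.897%). The SREBP bar is tallest for genes lowered at least 8-fold (2.56%, 8 of 313 genes). CCAAT is not drawn.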

How the data were processed

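Messenger RNA of 12 bone marrow macrophage cultures, 3 in each of 4 groups, was sequenced with a stranded kit, per the labels' protocols. The authors deposited whole-number read counts per gene for each library. STAR 2.5, DESeq2 (no version) and the builds mm10 and GRCm38.p5 are named in the submitters' processing notes; which program counted the reads, with which strand setting and annotation, is not given in the sources used here. Of the reads in the control tables, 41.7 to 42.5% were assigned to genes and 45.8 to 46.8% to no feature, and rows that name no gene were left out of library sizes. Gene symbols came from GENCODE M21 (GRCm38), which held 45229 of the 46078 gene IDs; the rest carried 0.141% of counts. The 13 mitochondrial protein genes had no count.

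Genes were filtered with edgeR 4.0.16 (R 4.3.3) by filterByExpr, scaled by TMM and fitted with 1 mean per group over the 12 libraries. The quasi-likelihood test (robust, two-sided) gave p-values with Benjamini-Hochberg adjustment over 13837 genes, called under 0.05. The difference between genotypes was tested in the same fit. Scripts were tested on simulated counts in which few genes changed, as many up as down. The test recovered 80% of genes changed 1.5-fold, and 6.57% of its calls were false. With so few changed genes it could not probe the scaling. Between 17136578 and 18886948 counts per control library set the precision, and intervals and floors cover counting error only. Alternatives were library totals and RLE in place of TMM, no filter, a stricter filter (1 CPM in 3 libraries), DESeq2 1.42.0, only the 6 control libraries, the replicate number as a block, and each library left out.

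Members, gene lists and tests were chosen with earlier results of these data known. Named were the 15 largest rises and the 15 largest falls (at least 5 CPM in the higher group, groups not overlapping, no predicted genes), the 10 most abundant raised and the 10 most abundant lowered genes, up to 4 members of each list by adjusted p, members that moved against their list, the 4 largest rises and falls among non-coding genes, the 5 largest differences between genotypes in each direction and 22 set genes. Other named genes, among them Isg15, Mx1, Spi1 and Mki67, were chosen after their values were seen, and some genes that meet the rule are not reported here. Promoters printed are those of list members with the motif and the largest changes, outside chromosome 18; their length was set after the promoters were seen.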

Additional observations from a re-analysis of the deposited data

Results flagged for a closer look

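The difference of the LPS response between genotypes was tested for each named gene by the interaction in edgeR's quasi-likelihood fit, and 42 named genes had an adjusted p under 0.05 and a difference of at least 2-fold. All values here are the log2 fold change in Dicer KO cells minus that in control cells. A negative value means a lower log2 fold change in Dicer KO cells, and across all genes 6.79% had a called difference of this size.

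There were 22 genes with a lower log2 fold change in Dicer KO cells. The most negative were Lipg (-4.41), Ifnb1 (-3.29), Bmyc (-3.06), Heatr9 (-2.89), Cobll1 (-2.81) and Arrb1 (-2.75). With LPS, Lipg was higher in Dicer KO than in control, at 771 to 972 CPM against 160 to 228 CPM. With vehicle it was at 1.72 to 2.38 CPM in Dicer KO, against 1 read over the 3 control libraries. Among genes of interferon signalling and chemokines, the values were Ifit2 (-2.06), Cxcl10 (-2.05), Oas3 (-1.70) and Ccl5 (-1.26). Ifit2, Cxcl10 and Oas3 were higher in the 3 Dicer KO libraries than in the 3 control libraries both with vehicle and with LPS, as was Ccl5: Ifit2 was at 1334 to 2165 CPM against 138 to 163 CPM with vehicle and at 10556 to 10953 CPM against 3189 to 3854 CPM with LPS. For the cholesterol and lipid synthesis genes they were Fdps (-2.26), Acat2 (-1.76), Mvd (-1.56) and Dgat2 (-1.45). The others were Marco (-2.06), Acod1 (-1.86), Ccnd2 (-1.81), Sesn1 (-1.59), Rrp1b (-1.59), Cebpa (-1.54), Peg13 (-1.28) and Eif2ak3 (-1.02). Acod1 in Dicer KO was at 69.6 to 133 CPM with vehicle and 11790 to 12672 CPM with LPS. In control it was at 18.5 to 22.3 and 7982 to 8580 CPM. Ccnd2 was at 12.5 to 20.1 and 756 to 819 CPM in Dicer KO, against 1.94 to 2.57 and 362 to 385 CPM in control. Both were thus higher in Dicer KO with either treatment, while Marco and Sesn1 were lower with either treatment. Bmyc and Arrb1 fell in both genotypes, by log2 fold changes of -3.40 and -2.92 in control and -6.47 and -5.67 in Dicer KO. Exons on the opposite strand overlap 62.8% of the exon length of Bmyc, 21.8% of that of Tgm2 and 11.8% of that of Htr2b.

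There were 20 genes with a higher log2 fold change in Dicer KO cells. The most positive were Cd38 (5.31), Spsb1 (3.28), Ciita (3.27), Kmo (3.25), Htr2b (3.14), Slc40a1 (2.37) and Rgs2 (2.07). Ciita fell in control (-2.24) and rose in Dicer KO (1.02), and Kmo, an enzyme of tryptophan breakdown, fell in control (-0.80) and rose in Dicer KO (2.46). The fall of Kmo was not called without control LPS replicate 2 (-0.65, edgeR adjusted p = 0.0604). The value of Cd38 rests on vehicle reads alone, since its LPS levels were alike and its Dicer KO vehicle libraries were at 0. The others were Il1b (2.07), Abca1 (1.53), Lpar6 (1.53), Il1rn (1.30), Adora2a (1.26), Arl4c (1.24), Pfkfb3 (1.09), Adora2b (1.05), Zeb1 (1.04), Mmp14 (1.04), Tgm2 (1.04), Slc7a2 (1.02) and Cenpa (1.02). Slc40a1, Rgs2, Lpar6, Arl4c and Cenpa fell in both genotypes, and the positive value is a smaller fall in Dicer KO (Slc40a1 -6.40 in control and -4.03 in Dicer KO). Il1rn, Adora2a, Pfkfb3, Adora2b, Zeb1, Mmp14 and Slc7a2 rose in both genotypes, with the larger log2 fold change in Dicer KO.

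The difference for Ifnb1 rests on 20 reads in the control LPS libraries and none with control vehicle, so that the control fold change has only a lower limit. This difference was lost under 11 of the alternatives, with edgeR adjusted p up to 0.0966. That for Adora2a was lost under 10, with library totals (1.03, edgeR adjusted p = 0.0785) and the replicate block among them, and was 0.86 without Dicer KO vehicle replicate 3 and 2.19 without Dicer KO vehicle replicate 1. That for Cobll1 was lost under 4, with 0.185 as the highest edgeR adjusted p, without Dicer KO vehicle replicate 2 (-2.18), and was -4.38 without control vehicle replicate 3. That for Lipg was -5.98 without control vehicle replicate 3 (edgeR adjusted p = 0.0608). That for Heatr9 was -3.53 without control vehicle replicate 1. For the other 37 genes and Heatr9 the difference kept its direction and its call under every alternative that gave a value.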

How the results depend on the processing

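Scaling mattered most. With library totals in place of TMM, 3066 genes were higher and 8737 lower with LPS, 1651 and 4635 of them at least 2-fold. The difference between genotypes was then positive for 997 and negative for 5136 genes, 229 and 1046 at least 2-fold. Under DESeq2 (5437 and 5377), RLE (5433 and 5503), no filter (5352 and 6325), a stricter filter (5064 and 5424) and only the 6 control libraries (5094 and 5520), higher and lower calls stayed within 1.5 times. Leaving out 1 library at a time gave 5119 to 5364 higher and 5467 to 5789 lower genes, 2491 to 2539 and 2782 to 2857 at least 2-fold. For the difference between genotypes it gave 1744 to 2206 positive and 2277 to 2815 negative, 325 to 424 and 508 to 614 at least 2-fold.

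With library totals the log2 value of Dicer1 turned to -0.34, and list medians turned to -0.04 (early transcription factors), -0.48 (lineage factors), -0.26 (G protein-coupled receptors), -0.02 (hypoxia), -0.50 (tricarboxylic acid cycle), -0.43 (respiratory chain), -0.42 (endoplasmic reticulum stress) and -0.38 (chromatin). The lineage median also turned without a filter (-0.01), with a stricter filter or 6 control libraries (-0.03), and without control LPS replicate 3 (-0.01) or vehicle replicate 3 (-0.06). That of the tricarboxylic acid cycle turned without a filter (-0.03) and without vehicle replicate 3 (-0.02; -0.02 to 0.05 over the libraries left out), and that of fatty acid synthesis with a stricter filter (0.02). The cause was not tested. Of the named genes' calls, Cd74 (0.07) and Atp5f1 (0.02) were lost with library totals, Dicer1 without a filter (0.13) and without LPS replicate 3 (0.14), and Kmo without LPS replicate 2 (-0.65). Angptl4 was -8.78 under DESeq2.

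The labels state no pairing by replicate number. The deviations of same-numbered vehicle and LPS libraries from their group means correlated at -0.0537, 0.0591 and -0.032. With 3 libraries in a group, such values cannot tell whether same-numbered libraries share an animal. With the replicate number as a block, 5258 genes were higher and 5660 lower. Depth limits the genes near 0 in one group: 152 raised genes had 3 reads or fewer over the vehicle libraries, so that their fold changes have wide intervals.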
